A study of Mus musculus with 2 samples.

Results

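Neurexins, neuroligins and LRRTMs are adhesion proteins that face each other across the synaptic cleft. Neurexins sit mainly on the presynaptic membrane. Neuroligins and the leucine-rich repeat transmembrane proteins (LRRTMs) sit on the postsynaptic side and bind them there. Each neurexin gene makes a long form from an upstream promoter and a short form from an internal promoter, usually called α and β. Small alternative exons in neurexins and neuroligins change which partner is bound. The insert at splice site 4 of neurexins is known to weaken LRRTM binding and to be needed for binding of cerebellins.

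The set described here holds 8 genes, chosen by name: the neurexin genes Nrxn2 and Nrxn3, the neuroligin genes Nlgn1, Nlgn2 and Nlgn3, and Lrrtm1, Lrrtm2 and Lrrtm3. They are 8 of the 43346 Ensembl genes in the tables, and 52 annotated transcripts belong to them. The rule uses names alone. All were found by Ensembl identifier in the gene and transcript tables of both libraries.

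RNA came from hindbrain (cerebellum, pons and medulla) of healthy mice of strain B6NTac;B6NCrl/Lap at postnatal day 0, males and females pooled. The series has 1 group of 2 libraries, called replicates 1 and 2. Replicate 1 came from 15 mice, and replicate 2 from a pool of unstated size. Ribosomal RNA was depleted, RNA over 200 nt was kept, and fragments were read from both ends with strand information. The labels name the pools as independent isolates but give both a single donor identifier, so part of the spread between them may be technical. The tables hold 54313140 and 77142270 expected counts, which are estimated numbers of fragments per gene. Hindbrain markers reached 1 TPM in both libraries in 7 of 7 cases and forebrain markers in 0 of 6. TPM, a measure of transcript abundance, divides counts by effective length and sums to 1000000 in each library. With 1 group there is no treated sample and no p-value, because an exact sign-flip test of 2 values can reach no lower p than 0.5. In bulk tissue, fewer cells of a type and less RNA per cell cannot be told apart.

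All 8 genes were expressed in newborn hindbrain, and Nrxn2 led by a wide margin. Each reached 1 TPM in both libraries, as did 54.6% of the nuclear protein-coding genes. The median of the 8 mean levels was 20.1 TPM, against 8.11 TPM for the coding genes that reached 1 TPM. The neurexin genes together held 53.5% of the summed TPM of the 8 genes in replicate 1 and 48.1% in replicate 2. The 3 neuroligin genes held 35.05% and 38.65%, and the 3 LRRTM genes 11.4% and 13.2%.

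Nrxn2 (ENSMUSG00000033768, chromosome 19, 6418731 to 6544169, mm10) had 117.63 TPM in replicate 1 and 65.84 TPM in replicate 2, or 91.7 ± 36.6 TPM on average (SD, n = 2). The counts behind it were 34824 and 44143. It exceeded 98.6% and 98.2% of coding genes in the 2 libraries. Nrxn3 (ENSMUSG00000066392, chromosome 12, 88722876 to 90334935) had 27.94 and 19.75 TPM, a mean of 23.8 ± 5.79 TPM. Nrxn2 was 4.21-fold higher than Nrxn3 in replicate 1 and 3.33-fold higher in replicate 2, so the order of these neurexin genes was the same in both libraries.

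Among the neuroligins, Nlgn3, whose protein is found at excitatory and inhibitory synapses, was highest by gene TPM. Nlgn3 (ENSMUSG00000031302, chromosome X, 101299168 to 101325963) had 42.46 and 32.77 TPM, a mean of 37.6 ± 6.85 TPM (SD, n = 2). Nlgn2 (ENSMUSG00000051790, chromosome 11, 69823122 to 69837784), the neuroligin of inhibitory synapses, had 36.15 and 24.21 TPM, a mean of 30.2 ± 8.44 TPM. Nlgn1 (ENSMUSG00000063887, chromosome 3, 25426215 to 26332460), best known at excitatory synapses, had 16.72 and 11.78 TPM, a mean of 14.2 ± 3.49 TPM. Within each library Nlgn2 exceeded Nlgn1, by 2.16-fold in replicate 1 and 2.06-fold in replicate 2. Nlgn3 exceeded Nlgn2 by 1.17-fold and 1.35-fold.

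The LRRTM genes had the lowest summed TPM of the 3 families, with Lrrtm1 well above the other LRRTM genes and also above Nlgn1. Lrrtm1 (ENSMUSG00000060780, chromosome 6, 77242689 to 77257791) had 19.54 and 13.35 TPM, a mean of 16.4 ± 4.38 TPM (SD, n = 2). Lrrtm3 (ENSMUSG00000042846, chromosome 10, 63928472 to 64090277) had 7.81 and 7.07 TPM, a mean of 7.44 ± 0.523 TPM. Lrrtm2 (ENSMUSG00000071862, chromosome 18, 35209003 to 35215024) had 3.70 and 3.12 TPM, a mean of 3.41 ± 0.410 TPM. In both libraries Lrrtm1 was over Lrrtm3 and Lrrtm3 over Lrrtm2. Lrrtm2 had the fewest counts, 1622 and 2769, for which the counting error alone is 2.48% and 1.90%.

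**Figure D1:**
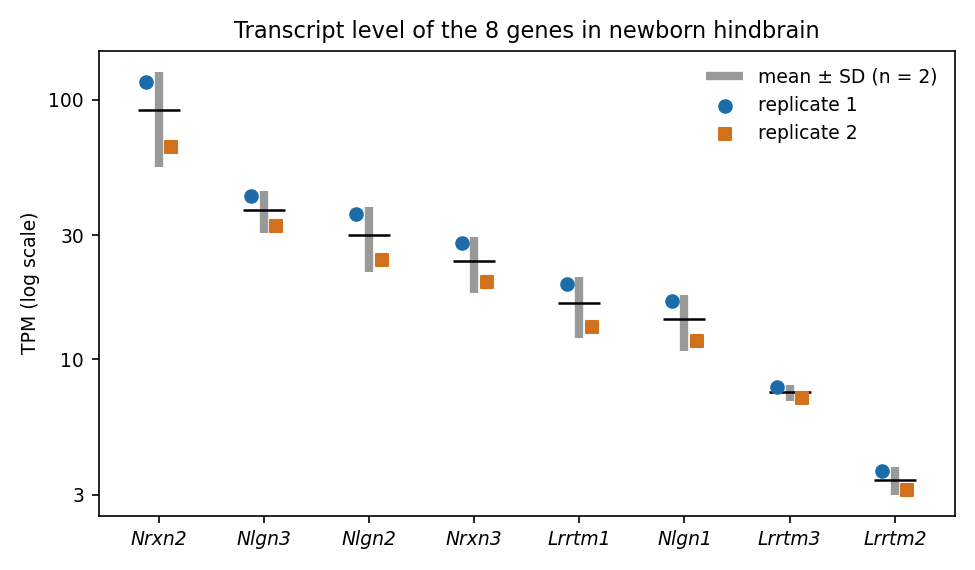
Level of each gene in TPM on a log scale, with 1 point per library, the mean as a horizontal bar and the SD of the 2 libraries as a grey bar. Nrxn2 stands at 117.63 and 65.84 TPM, and replicate 2 lies below replicate 1 for all 8 genes.

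The order of the 8 genes was Nrxn2, Nlgn3, Nlgn2, Nrxn3, Lrrtm1, Nlgn1, Lrrtm3 and Lrrtm2 in replicate 1 and the same in replicate 2. A neighbouring pair was taken to differ when its log2 TPM ratio had the same sign in both libraries and a mean over 2 SD. All 7 neighbouring pairs did so by this rule. The narrowest step was Lrrtm1 over Nlgn1, with a log2 ratio of 0.20 ± 0.03 (SD, n = 2). The step from Nlgn3 to Nlgn2, 0.33 ± 0.14, is the one that failed at 3 SD. The widest were Nrxn2 over Nlgn3 (1.24 ± 0.33) and Lrrtm3 over Lrrtm2 (1.13 ± 0.07).

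That order partly rests on short or non-coding transcripts, whose TPM is added to that of the gene. When complete coding transcripts alone were summed, a setting chosen after seeing the data, Nlgn2 stood above Nlgn3, by 1.74-fold in replicate 1 and 1.66-fold in replicate 2. Lrrtm2 then stood above Lrrtm3, by 1.10-fold and 1.11-fold. Lrrtm1 and Nrxn3 no longer differed beyond 2 SD, at 1.03-fold and 1.08-fold. The sums also leave out nonsense-mediated decay transcripts, which both of these genes have. Nrxn2 stayed first, 2.41-fold and 2.40-fold above Nlgn2. On this measure Nlgn3 had 16.01 ± 4.37 TPM, Nrxn3 13.7 ± 3.70 TPM and Lrrtm3 3.09 ± 0.382 TPM (SD, n = 2).

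The TPM of all 8 genes was lower in replicate 2, and this was shared with coding genes at large. Coding genes, the mitochondrial ones included, accounted for 29.6% of the fixed sum in replicate 1 and for 20.5% in replicate 2. With the TPM of nuclear coding genes rescaled to sum to 1000000, Lrrtm1 had 69.6 and 69.4, Nrxn3 99.6 and 102.6, and Nlgn2 128.8 and 125.8. On that scale Nrxn2 was still lower in replicate 2, with 419.2 and 342.0. Lrrtm3 was higher there, with 27.8 and 36.7, as was Lrrtm2, with 13.2 and 16.2.

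Counts compared directly gave small differences between the libraries. Scaled counts of Nrxn2 were 42194 in replicate 1 and 37579 in replicate 2, a log2 ratio of −0.17. For Lrrtm2 they were 1965 and 2357 (0.26), and for Lrrtm3 2128 and 2526 (0.25). The other 5 genes lay between −0.10 and 0.03. None of the 8 genes differed by 1.5-fold or more between libraries, a description of 1 library against 1. Of 17632 genes (mean count 10 or more), 24.6% were past that fold, but 1.03% of the 5829 genes within the count range of the 8. The median absolute log2 ratio was 0.0975 for the 8 genes and 0.114 for those 5829. By TMM scaling 3 of the 8 ratios were above 0, and by spike-in totals 7 were, because that scaling moved the median of all genes from 0.0054 to 0.106. The ratios of Nlgn1, Nlgn2, Nrxn3 and Lrrtm1 changed sign with it, while Nrxn2 stayed below 0 and Nlgn3, Lrrtm2 and Lrrtm3 above.

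**Figure D2:**
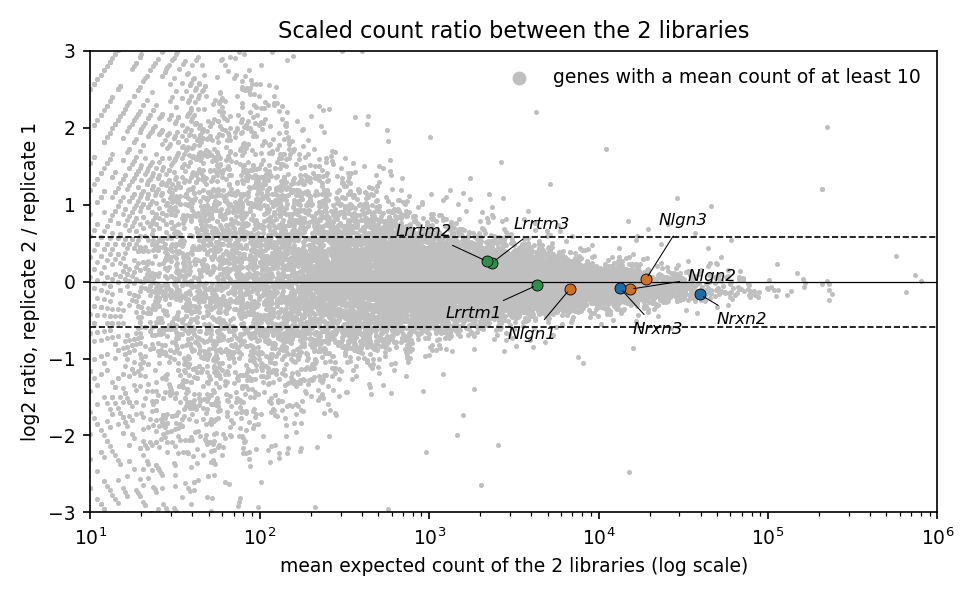
Log2 ratio of scaled counts, replicate 2 over replicate 1, against the mean expected count on a log scale, with the 8 genes named and all other genes in grey. Dashed lines mark 1.5-fold, all 8 genes lie between them, and 739 of 17632 genes lie beyond the plotted range of −3 to 3.

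The 8 genes differed widely in how many transcripts shared their signal. Nrxn2 has 15 transcripts in the tables and Nrxn3 13, whereas Lrrtm2 has 1. In each of the 7 genes with several transcripts, the one with the highest share of TPM was the same in both libraries, as it was for 80.4% of 9107 coding genes that have 2 or more transcripts and mean counts of 200 or more. The share of the leading transcript differed between libraries by a median of 5.97 percentage points for the 7 genes with several transcripts, and by 8.11 points for those 9107 genes. Complete coding transcripts led in 6 of the 8 genes. The exceptions were Nlgn3, led by a coding transcript annotated without its 3′ end, and Lrrtm3, led by a retained intron.

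No single transcript dominated Nrxn2. Its highest, Nrxn2-204, a long form without the splice site 4 exon, held 22.1% of the gene's TPM in replicate 1 and 24.0% in replicate 2. The short form Nrxn2-202 held 17.0% and 22.2%, the long form Nrxn2-208 16.1% and 16.5%, and the long form Nrxn2-201 9.17% and 14.3%. The short non-coding transcript Nrxn2-213, of 576 nt, held 15.3% and 8.05%, from 387 and 246 counts. This transcript alone had 18.0 and 5.30 TPM, and the complete coding transcripts of Nrxn2 together had 80.0 and 51.4 TPM.

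Nrxn3 was led by the long coding form Nrxn3-205, at 40.5% of the gene's TPM in replicate 1 and 28.3% in replicate 2. Its counts were almost equal, 7044 and 7050, although replicate 2 was sequenced 1.42-fold deeper. The nonsense-mediated decay transcript Nrxn3-208 took 14.4% and 18.8%, and the retained intron Nrxn3-204 13.7% and 19.5%. The short form Nrxn3-203 held 11.6% and 13.3%. Complete coding transcripts together held 58.5% and 56.2%, so their sum differed less between libraries than their leader did.

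Nlgn3-203, which lacks both site A exons and ends within the coding region, held 54.6% and 60.55% of Nlgn3 TPM. By counts it was second, since the complete transcript Nlgn3-201, of 8465 nt, took 61.6% and 65.4% of the counts but 33.7% and 33.3% of TPM. Nlgn3-202 held 11.3% in replicate 1 and 2.25% in replicate 2, and its deposited intervals of 4.03 to 5.89 and 0.159 to 1.24 TPM do not overlap. Those of the whole gene, 40.99 to 43.15 and 31.98 to 33.31 TPM, do not overlap either, so this does not set Nlgn3-202 apart. Each interval comes from 1 library, and its level is unstated. Nlgn3-206 went the other way, with 0% and 3.90%. Nlgn2 was simpler, with 77.2% and 66.5% in Nlgn2-201 and 14.4% and 22.01% in Nlgn2-202, which encode proteins of the same length, 836 amino acids. The partial transcript Nlgn2-203 took 8.33% and 11.1%. Nlgn1 was spread over Nlgn1-203 (38.7% and 44.7%), Nlgn1-201 (31.7% and 24.6%), the retained intron Nlgn1-204 (17.6% and 19.1%) and Nlgn1-205 (12.05% and 9.52%). Ranked by counts, Nlgn1 had another leader in each library, Nlgn1-205 with 1897 counts in replicate 1 and Nlgn1-203 with 2364 in replicate 2.

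In Lrrtm1 a protein of 522 amino acids is encoded by Lrrtm1-202, with 68.1% and 58.1% of TPM, and by Lrrtm1-203, with 18.0% and 31.4%. Lrrtm1-201, annotated for nonsense-mediated decay but with a coding sequence of the same 522 amino acids in length, took 13.9% and 10.5%. In Lrrtm3 the retained intron Lrrtm3-204 held 56.95% and 51.1% of TPM and the coding Lrrtm3-201 43.05% and 39.9%. The coding transcript had more counts than the retained intron in both libraries, 987 against 769 and 1677 against 1272. Lrrtm2 had 100% in its single coding transcript.

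**Figure D3:**
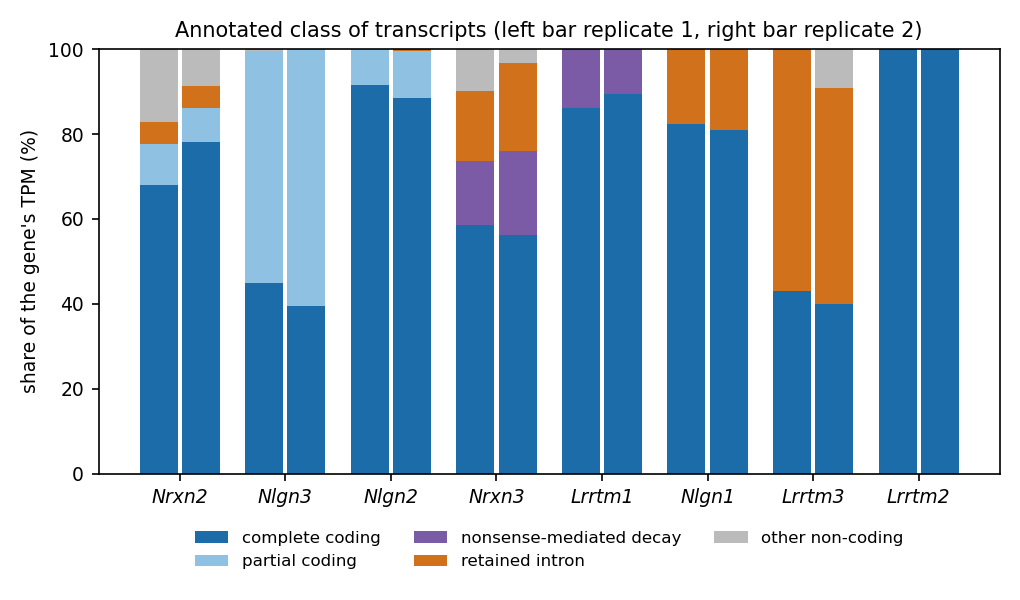
Share of each gene's TPM by annotated class of transcript, in percent, with replicate 1 as the left and replicate 2 as the right bar of each pair. Complete coding transcripts hold over 50% in 6 genes, while Nlgn3 is led by a partial coding transcript and Lrrtm3 by a retained intron.

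The long forms of both neurexin genes outnumbered the short forms. Coding and nonsense-mediated decay transcripts that start at or after the internal promoter were taken as short, and those that start before it as long. In Nrxn3 the long forms thus include Nrxn3-201 and Nrxn3-210, which start at 88953399 and 89193106, against 88794504 for Nrxn3-205. They encode 1100 amino acids, against its 1571. The nonsense-mediated decay transcript Nrxn3-208 also counts as long. Among long and short forms of Nrxn2, the long ones made up 74.0% in replicate 1 and 71.3% in replicate 2 (72.7 ± 1.89%, SD, n = 2). In Nrxn3 they held 77.1% and 74.9%, a mean of 76.0 ± 1.54%. Long-form TPM was 59.2 and 36.7 for Nrxn2 and 15.9 and 11.3 for Nrxn3, and short-form TPM 20.8 and 14.7 against 4.72 and 3.77. Transcripts that were neither form, fragments and non-coding RNA, made up the rest of each gene. By counts, which grow with transcript length, the long forms held a mean of 82.4% and 89.0%.

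The splice site 4 exon of Nrxn3 and the site A and B exons of the neuroligins are shown because they mark transcripts that are compared. Capitals mark the alternative exon or exon end, and lower case the 12 bases of the coding exons on each side, all 5′ to 3′ on the gene's strand, from GENCODE M21 transcripts on GRCm38 (mm10).
Nrxn3 splice site 4, chr12:90199147-90199236, plus strand: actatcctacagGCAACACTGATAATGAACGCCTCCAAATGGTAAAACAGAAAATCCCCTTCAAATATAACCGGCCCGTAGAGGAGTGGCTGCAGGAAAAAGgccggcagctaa
Nlgn1 site A, chr3:25920178-25920237, minus strand: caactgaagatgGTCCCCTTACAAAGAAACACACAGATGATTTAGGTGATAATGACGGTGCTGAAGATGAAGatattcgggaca
Nlgn1 site B, chr3:25439865-25439891, minus strand: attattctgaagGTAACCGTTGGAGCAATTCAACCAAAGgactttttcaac
Nlgn2 site A, chr11:69830563-69830613, minus strand: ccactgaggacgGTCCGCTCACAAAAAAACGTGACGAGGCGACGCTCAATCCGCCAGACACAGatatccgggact
Nlgn3 site A, exon 1, chrX:101303072-101303131, plus strand: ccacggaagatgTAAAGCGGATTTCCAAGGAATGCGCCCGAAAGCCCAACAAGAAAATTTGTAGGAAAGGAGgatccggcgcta
Nlgn3 site A, exon 2, chrX:101307075-101307134, plus strand: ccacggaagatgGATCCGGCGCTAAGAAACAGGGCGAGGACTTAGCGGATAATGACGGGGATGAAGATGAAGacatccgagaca

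The splice site 4 exons of Nrxn2 and Nrxn3 are both 90 nt long and keep the reading frame. Aligned without gaps, the Nlgn1 site A exon shares 43 of 60 bases with exon 2 of Nlgn3 site A and 16 of 60 with exon 1. The Nlgn2 site A exon is 51 nt long, and GC content of the exons shown ranges from 41.7% in Nlgn1 site A to 56.9% in Nlgn2 site A.

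At splice site 4, transcripts with the exon prevailed in both neurexin genes. In Nrxn2 their share was 66.6% in replicate 1 and 69.0% in replicate 2 (67.8 ± 1.69%, SD, n = 2), over 6 coding transcripts that span the site. In Nrxn3 they held 83.1% and 81.1% (82.1 ± 1.39%), over 7 coding or nonsense-mediated decay transcripts. The libraries do not overlap between the genes, which differ by 16.5 percentage points in replicate 1 and 12.1 in replicate 2. The sets are unlike, as Nrxn2 has no nonsense-mediated decay transcript. In Nrxn3 that class adds Nrxn3-208 with the exon (4.02 and 3.71 TPM) and Nrxn3-213 without it (0.25 and 0.21 TPM), which widens the gap.

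Among annotated transcripts, the long and short forms were split in opposite ways in the 2 genes. In Nrxn2 the exon was in 56.1% and 56.9% of long-form TPM and in 96.2% and 99.05% of short-form TPM. In Nrxn3 it was in 98.4% and 98.1% of long-form TPM and in 31.4% and 30.2% of short-form TPM. Each short-form value rests on 1 transcript with the exon and 1 without. These were Nrxn2-202 (20.02 and 14.6 TPM) and Nrxn2-203 (0.78 and 0.14 TPM) in Nrxn2, and Nrxn3-202 (1.48 and 1.14 TPM) and Nrxn3-203 (3.24 and 2.63 TPM) in Nrxn3. The short pairs differ beyond this exon. Nrxn2-202 ends at 6533217 and encodes 660 amino acids, whereas Nrxn2-203 ends at 6544169 and encodes 353. Nrxn3-202 encodes 567 amino acids and Nrxn3-203 430. The short-form shares therefore do not measure the choice at splice site 4 alone. The annotation ties exons together. Nrxn2-204 is the single long form without the exon and also lacks a 27-nt exon at 6488784 to 6488810, and Nrxn3-213, the single long form of Nrxn3 without it, is a nonsense-mediated decay transcript. In Nrxn3 a 27-nt exon at 89354453 to 89354479 was in 74.7% and 67.05% of long-form TPM, and another at 89517906 to 89517932 in 3.59% and 17.4%. The rise of the latter came from Nrxn3-210, which had 0 counts in replicate 1 and 863 in replicate 2. Shares are those of annotated transcripts and not of reads across each junction.

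Among the neuroligins most Nlgn2 TPM was in transcripts with the insert, whereas that of Nlgn1 and Nlgn3 was mixed. In Nlgn2, and in Nlgn3 for exon 2, only a partial transcript lacked it, so their contrast rests on the TPM of such fragments. Site A and the 27-nt site B, whose insert favours short over long neurexins, occur together in Nlgn1-201 and Nlgn1-205 and are both absent from Nlgn1-202 and Nlgn1-203. None of these holds either site without the other, so the shares of sites A and B are equal by annotation. The share with both was 53.05% in replicate 1 and 42.2% in replicate 2 (47.6 ± 7.68%, SD, n = 2). By TPM the libraries thus fell on either side of 50%, but by expected counts both were above it, at 71.85% and 61.76%. In Nlgn2 the site A exon was in 91.7% and 88.9% of TPM, and the remainder was the partial transcript Nlgn2-203. In Nlgn3 exon 2 of site A was in 45.2% and 39.4% of TPM, but in 81.2% and 77.3% of expected counts. The transcript without it is the short, partial Nlgn3-203, and all 3 complete coding transcripts hold it. Exon 1 occurs in Nlgn3-206 alone, which had 0 counts in replicate 1 and 1744 counts (3.91% of TPM) in replicate 2. By the deposited posterior mean TPM its share in replicate 1 was 0.382%.

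**Figure D4:**
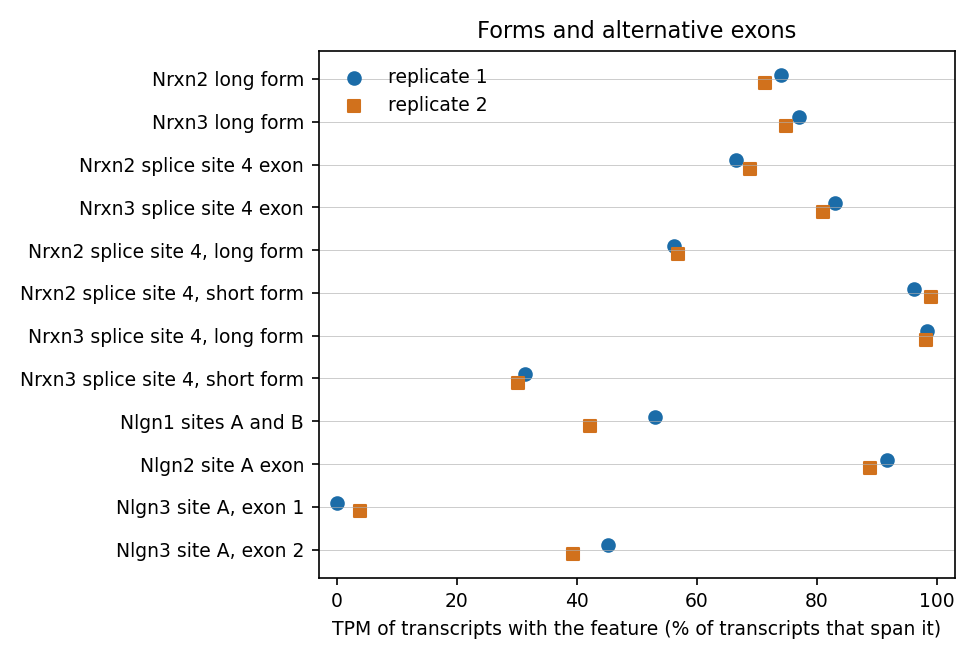
Share of TPM held by transcripts with each form or exon named on the axis, in percent of the transcripts that span it, with 1 point per library. The splice site 4 exon lies at 96.2% and 99.05% in the short form of Nrxn2 and at 31.4% and 30.2% in that of Nrxn3, and Nlgn1 sites A and B lie at 53.05% and 42.2%.

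The 3 LRRTM genes share a position in the genome: each lies within an α-catenin gene, on the opposite strand. α-Catenins link cadherins to actin. Lrrtm1 lies in Ctnna2, which had 41.77 and 28.70 TPM, a mean of 35.2 ± 9.24 TPM (SD, n = 2). Lrrtm2 lies in Ctnna1, with 7.40 and 5.96 TPM, and Lrrtm3 in Ctnna3, with 0.81 and 0.40 TPM. Ctnna2 and Ctnna1 exceeded the gene they hold in both libraries, whereas Ctnna3 was lower than Lrrtm3. Exons of Lrrtm1 and Lrrtm3 share no base with those of their host, and those of Lrrtm2 share 95 of 6022 bases (1.58%) with Ctnna1. Nlgn3 shares 3823 exon bases with Gm21986 on the same strand (1.36 and 0.70 TPM), and it is the single member with counts that are not whole (15496.44 and 22501.21). The part of this overlap in its level was not tested. On the opposite strand, the antisense gene A830092H15Rik over Nlgn1 was low (0.745 ± 0.304 TPM). So were the coding gene Slc22a12 (0.185 ± 0.205 TPM) and the antisense gene Gm14964 (0.0 and 0.06 TPM), both over Nrxn2.

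The partner genes of these families were almost all expressed. Of 72 genes in 5 lists, 69 reached 1 TPM in both libraries, against 54.6% of the nuclear protein-coding genes. That share is also the background for the count of each list given below. Of 72 tested, 1 was 1.5-fold or more higher in replicate 2 and 0 lower, against 14.7% and 9.88% of those 17632 genes. In either direction it was 1.03% of the 5829 genes in the count range of the 8, so a count of 1 in 72 does not set the partners apart. The lists were chosen with earlier results of these data known. All 19 other neurexin ligands and latrophilin partners reached 1 TPM, with a median of 15.0 TPM. The calsyntenins Clstn1 and Clstn3 had 168.24 and 113.01 TPM, and 95.55 and 64.91 TPM. The latrophilins Adgrl1 and Adgrl3 had 109.14 and 89.52 TPM, and 53.62 and 34.26 TPM. Lowest were C1ql2 (2.90 ± 1.22 TPM, SD, n = 2) and Flrt1 (2.13 ± 0.304 TPM). Cbln4, a cerebellin that binds neurexins, was the gene past 1.5-fold, with 5.30 and 5.78 TPM and a scaled count ratio of 1.55. Its mean count of 1806 was below the count range of the 8.

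The LAR phosphatases form a second presynaptic adhesion hub with its own set of postsynaptic partners. Of its 18 genes, 16 reached 1 TPM in both libraries, with a median of 10.9 TPM. Ptprs had 177.81 and 118.55 TPM and its ligand gene Lrrc4b 185.23 and 107.69 TPM, and both exceeded Nrxn2 in each library. Lrfn4 (41.1 ± 9.91 TPM, SD, n = 2) and Ptprf (37.1 ± 10.5 TPM) followed. Slitrk6 (1.43 and 0.98 TPM) and Il1rapl1 (1.08 and 0.69 TPM) were lowest and did not reach 1 TPM in replicate 2.

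Genes of cytoplasmic scaffold proteins reached 1 TPM in both libraries in 16 of 16 cases, with a median of 13.8 TPM. Apba2 (124 ± 47.3 TPM, SD, n = 2), Dlg4 (52.9 ± 13.4 TPM), which encodes PSD-95, Apba1 (41.7 ± 12.1 TPM) and Lin7c (37.9 ± 13.9 TPM) were highest. Dlg1 (5.22 ± 1.05 TPM) and Lin7a (4.88 ± 1.87 TPM) were lowest. Cask, which binds neurexin tails and was singled out after its values were seen, had 49.44 and 18.59 TPM, with a log2 ratio of scaled counts of 0.02. Among modulators 8 of 9 reached 1 TPM, led by Sparcl1 (143 ± 49.4 TPM), the hevin gene, and Sparc (66.3 ± 4.96 TPM). Mdga1, whose protein blocks neuroligins, had 20.7 ± 1.19 TPM, and Igsf9b 20.1 ± 5.73 TPM. Adam10, a protease that cuts adhesion proteins, had 3.50 ± 0.346 TPM and Gpc4 0.740 ± 0.184 TPM.

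All 10 splicing regulators reached 1 TPM, with a median of 19.2 TPM. Rbfox2 (44.2 ± 13.5 TPM, SD, n = 2), Ptbp1 (39.6 ± 9.34 TPM), Rbfox1 (34.5 ± 5.81 TPM) and Ptbp2 (25.2 ± 5.97 TPM) were highest. Khdrbs2 and Khdrbs3, whose proteins promote skipping of the splice site 4 exon, are both given although Khdrbs3 was picked after its values were seen. They had 7.26 and 3.74 TPM, and 14.22 and 6.84 TPM. Khdrbs1 of the same list, also named after its values were seen, had 24.03 and 14.37 TPM. Nova2 was lowest at 4.60 ± 1.32 TPM. Khdrbs3 had a log2 scaled count ratio of −0.53, Khdrbs2 of −0.37 and Khdrbs1 of −0.17, all short of 1.5-fold. The splice site 4 share of Nrxn2 was 66.6% and 69.0% and that of Nrxn3 83.1% and 81.1%. The part of these Khdrbs genes in those shares was not tested.

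**Figure D5:**
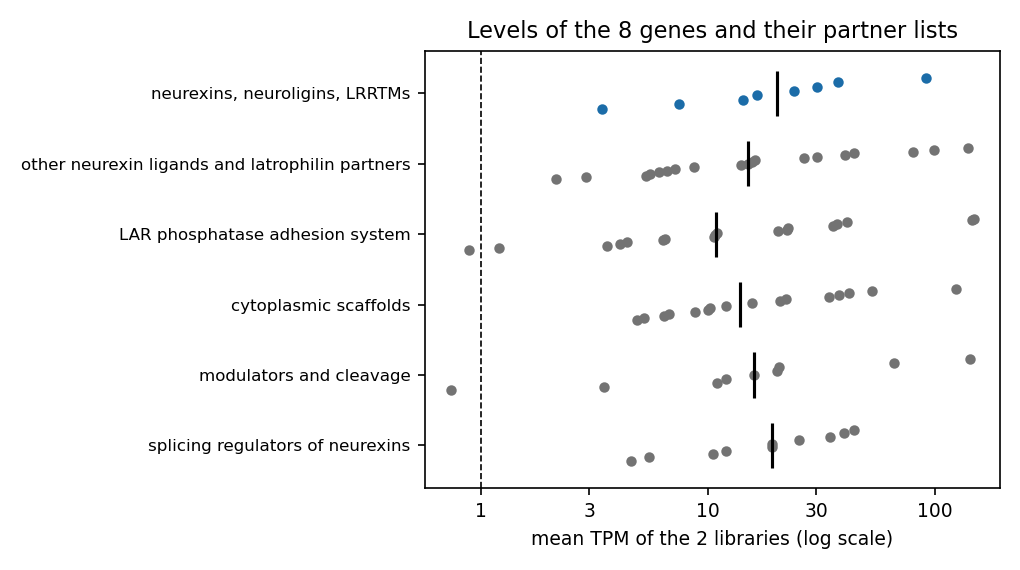
Mean TPM of the 2 libraries on a log scale for the 8 genes and for 5 lists of partner genes, with 1 point per gene, the median of each list as a vertical bar and 1 TPM as a dashed line. The 8 genes have a median of 20.1 TPM, and the lists have medians between 10.9 and 19.2 TPM.

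Summed markers of each cell type were lower in replicate 2. Neuron markers summed to 1652 and 1106 TPM, astrocyte and radial glia markers to 867 and 583, oligodendrocyte lineage markers to 164 and 126, microglia markers to 49.5 and 38.9 and endothelial markers to 111 and 72.6. Coding genes at large were lower there too, with 29.6% and 20.5% of the fixed sum, so these sums do not show fewer cells of each type. The TPM of the 8 genes was also lower in replicate 2, and the part of these cell types in it was not tested. Tubb3 (910 ± 260 TPM, SD, n = 2) led the neuron markers, and Rbfox3 was lowest of them with 13.96 and 10.07 TPM. In scaled counts 0 of 6 neuron, 0 of 6 astrocyte and radial glia, 0 of 6 oligodendrocyte lineage and 0 of 5 endothelial markers differed by 1.5-fold or more. Of 6 microglia markers, 1 was higher in replicate 2 (Tmem119, log2 ratio 0.80) and 1 lower (Aif1, −3.03). Among all genes 24.6% passed, and 1.03% of those in the count range of the 8. Tmem119 and Aif1 had mean counts of 397 and 16, below that range, so the 1.03% is no background for them.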

How the data were processed

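Per the deposited file notes, the gene and transcript tables were made from transcriptome alignments with build mm10 and GENCODE M4. Which aligner and quantifier were used, and whether counting used strand, is not given in the sources used here. The authors deposited, per the file headers, expected counts (estimated, not always whole), TPM, FPKM, posterior mean TPM with interval bounds (the deposited values on the TPM scale, here called a score as their level is unstated) and the percent of its gene's TPM that each transcript holds. The deposited FPKM is not used in the text.

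GENCODE M21, on the same build, gave symbols, positions and transcript structure by identifier without version (42462 of 43346 genes, 97.96%). Of 52 transcripts of the 8 genes, 50 had the same length in both releases, and exons were read from these. Spike-in, phiX and number-named rows (1.28% and 1.09% of counts) stayed out of ratios. Totals on mouse genes were 53617723 and 76299141. For ratios between libraries, expected counts were rounded and scaled by TMM (edgeR 4.0.16 in R 4.3.3) with a prior count of 2, over genes whose mean count was 10 or more. This step was tested on simulated data. Alternatives scaled by DESeq2 1.42.0, by total count or by the spike-in sum. Figures used Python 3.11.15.

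The genes and lists were chosen with earlier results of these data known. The text names the 8 genes, their transcripts with at least 10% in either library, up to 4 of the highest and 2 of the lowest genes of each partner list, genes past 1.5-fold and the 3 coding genes nearest in level to the highest gene of each family. Other members of these families were not analysed here, and 1 marker gene and some exon sequences are not reported here. Reads carry no molecular identifiers, so counting errors cover counting only.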

Additional observations from a re-analysis of the deposited data

How the results depend on the processing

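Every count reported for the 8 genes stayed within 1.5 times its value under the alternatives run. The number of genes at 1 TPM or more was 8 under another TPM scale, posterior means, limits of 0.5 and 2 TPM, and in each library alone. The coding TPM scale, which raises every value, the limit of 0.5 TPM and single libraries could not lower this number. None of the 8 passed 1.5-fold between libraries under the scalings, the prior count or the count filters run. The filters could not change this, as all 8 genes had counts far above them. The number of neighbouring pairs that differed was 7, or 6 at 3 SD and 6 with complete coding transcripts. The same leading transcript was found in 8 genes, Lrrtm2 with its single transcript among them, or 7 by expected counts. Genes with at least 50% of TPM in complete coding transcripts numbered 6, or 8 by expected counts. Partner genes at 1 TPM numbered 69, or 72 on the coding TPM scale, where the same limit is looser. The median log2 ratio of the 8 genes was −0.06 and became 0.04 with spike-in totals, a difference from all genes of −0.07 either way. Shares by expected counts rather than TPM moved 15 values, among them the splice site 4 exon of Nrxn3 (92.04%), Nlgn1 sites A and B (66.8%) and exon 2 of Nlgn3 site A (79.2%), since counts grow with transcript length. No paired analysis was possible because the series has a single group. Counting error alone was at most 2.48% of a gene's count, for Lrrtm2 in replicate 1.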

Other observations

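By distance of log2 TPM over the 2 libraries among 12365 coding genes (mean count 200 or more), the 3 genes nearest in level to Nrxn2 were Myl12b (115.38 and 66.98 TPM), 2410002F23Rik (114.09 and 65.05 TPM) and Rtl8b (114.25 and 67.08 TPM). Nearest to Nlgn3 were Tro (41.87 and 32.82 TPM), Nedd8 (42.97 and 33.03 TPM) and Rpl12 (42.80 and 32.18 TPM). Nearest to Lrrtm1 were Scarb1 (19.71 and 13.38 TPM), Fam49b (19.33 and 13.43 TPM) and Minpp1 (19.72 and 13.48 TPM). With 2 libraries this measures level alone.

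Among markers, genes past 1.5-fold in scaled counts included Atoh1 (3.20 and 4.57 TPM, log2 ratio 1.03), Tmem119 (1.44 and 1.76 TPM, 0.80) and Aif1 (0.67 and 0.04 TPM, −3.03). The forebrain genes Dlx1 (0.70 and 0.66 TPM, log2 ratio 0.74), Emx2 (0.05 and 0.09 TPM, 1.16) and Dlx2 (0.27 and 0 TPM) were past it too, at levels under 1 TPM.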
